A study of Mus musculus with 48 samples.

Results

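The interferon-stimulated genes described here are a list of 39 genes chosen by symbol, and 37 of them had a probe set annotated to their symbol among the 19505 genes tested. The RNA of Gbp5 and Ifi44 was not analysed here, although their promoters were searched. Of several probe sets of a gene, that with the highest overall mean stood for it, so the choice of probe set used no difference between groups. The list itself was chosen with earlier results of these data known. By role the measured members are 4 transcription factors (Irf1, Irf7, Irf9, Stat2), 4 sensors of foreign nucleic acid (Ddx58, Ifih1, Dhx58, Zbp1), 16 antiviral effectors, 2 genes of the ISG15 system (Isg15, Usp18), 3 genes of the PARP and DTX3L group (Parp9, Parp14, Dtx3l), 5 GTPases (Gbp2, Gbp3, Gbp7, Igtp, Irgm1) and 3 genes of antigen processing (Tap1, Psmb8, Psmb9).

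The study measured RNA of 48 cultures of mouse macrophages on Affymetrix arrays, in 16 groups of 3 arrays that the sample titles call biological replicates. Kupffer cells, the macrophages resident in the liver, were sorted from livers of male BALB/c mice with magnetic beads against the macrophage antigen that Adgre1 encodes. Monocytes were sorted from blood of those mice by CD115 and are called monocytic macrophages once in culture. All cells, those of the controls included, first spent 1 day with MCSF, the growth factor that keeps macrophages alive. They were then kept for 1 or 3 days with HGF (hepatocyte growth factor), with Ito cells (the stellate cells of the liver), with CD146 cells (endothelial cells of the liver sinusoids), or in MCSF medium, which is the control of each addition. It is not stated in the labels if Ito or CD146 cells were separated from the macrophages when RNA was taken, or if cultures with an addition still received MCSF. Whether RNA came from separate mice for each replicate is not stated either. The p-values therefore measure spread between arrays within groups, estimated for each gene over all 16 groups together.

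Type I interferons bind a receptor of the subunits Ifnar1 and Ifnar2, and the kinases Jak1 and Tyk2 then phosphorylate Stat2. Stat2 and Irf9 are parts of the factor ISGF3, which binds the interferon-stimulated response element (ISRE) in promoters such as those of Ifit1 and Isg15. Interferon gamma acts through another receptor with Jak1 and Jak2 and works on promoters through the gamma-activated sequence (GAS), with Irf1 as an early target. In macrophages, Irf7 is an induced factor that raises interferon transcription further, while Usp18 and Socs1 damp the receptor signal. Kupffer cells meet gut-derived microbial products in portal blood, and interferon responses are part of their antiviral role.

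The promoters below show what the ISRE search found among members whose RNA is described in detail. The 250 bases before the transcription start are printed 5′ to 3′ from RefSeq (GRCm38.p6), with ISRE matches in capitals. The letters searched were GAAANNGAAA, read TTTCNNTTTC on the other strand. Gbp2 lies at chr3:142620413-142620662 on the plus strand, and its single match begins at position -59 from the start. Isg15 lies at chr4:156200819-156201068 on the minus strand and holds 3 overlapping matches. Ifit1 lies at chr19:34640639-34640888 on the plus strand and holds 2 matches. Rsad2 lies at chr12:26456453-26456702 on the minus strand with 1 match, and its neighbour Cmpk2 at chr12:26468965-26469214 on the plus strand has none in this window.
Gbp2: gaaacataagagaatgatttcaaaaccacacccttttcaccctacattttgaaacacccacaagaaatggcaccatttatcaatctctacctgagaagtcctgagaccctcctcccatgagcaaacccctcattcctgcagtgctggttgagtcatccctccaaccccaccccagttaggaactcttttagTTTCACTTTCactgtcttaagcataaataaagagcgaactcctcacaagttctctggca
Isg15: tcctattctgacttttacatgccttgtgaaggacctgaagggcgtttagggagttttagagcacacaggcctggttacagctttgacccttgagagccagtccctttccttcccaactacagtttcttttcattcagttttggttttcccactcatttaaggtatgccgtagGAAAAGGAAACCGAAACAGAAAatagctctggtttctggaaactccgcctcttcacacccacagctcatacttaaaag
Ifit1: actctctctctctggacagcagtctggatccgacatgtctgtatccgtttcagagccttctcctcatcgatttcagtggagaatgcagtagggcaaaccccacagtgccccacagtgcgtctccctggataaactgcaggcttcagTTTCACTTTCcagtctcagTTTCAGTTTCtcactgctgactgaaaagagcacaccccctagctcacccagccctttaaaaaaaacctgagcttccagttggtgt
Rsad2: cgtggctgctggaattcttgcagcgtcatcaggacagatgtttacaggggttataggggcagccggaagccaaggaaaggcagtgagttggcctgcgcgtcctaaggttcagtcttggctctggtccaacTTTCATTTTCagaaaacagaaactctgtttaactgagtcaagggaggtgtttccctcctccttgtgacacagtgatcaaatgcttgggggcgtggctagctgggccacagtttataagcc
Cmpk2: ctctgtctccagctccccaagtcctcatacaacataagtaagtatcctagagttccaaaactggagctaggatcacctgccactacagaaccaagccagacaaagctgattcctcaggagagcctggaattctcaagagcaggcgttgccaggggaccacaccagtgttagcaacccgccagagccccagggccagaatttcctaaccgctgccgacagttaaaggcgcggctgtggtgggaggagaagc

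With the 50 bases after the start included, 30 listed members had a RefSeq window, and 16 of them held an ISRE match (53.3%), against 3.99% of 27025 genes. The GAS letters TTCNNNGAA, which read the same on both strands, were found in 8 of these 30 members (26.7%), against 9.55% of genes. The 30 include Gbp5, with 1 ISRE and 2 GAS matches, and Ifi44, with 0 of each, whose RNA was not measured. By role the ISRE letters stood in 6 of 6 GTPase windows, 2 of 2 sensor windows, 6 of 13 effector windows, 1 of 1 ISG15-system window, 1 of 4 transcription factor windows (Stat2), 0 of 1 PARP and DTX3L window and 0 of 3 antigen-processing windows. A match is a string of letters and not a measured binding site. Several members are neighbours in the genome: Rsad2 with Cmpk2 on chromosome 12, Parp14, Dtx3l and Parp9 on chromosome 16, Psmb9, Tap1 and Psmb8 on chromosome 17, and Ifit2 with Ifit3 on chromosome 19.

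Values are log2 signals as deposited, and a difference of 1 between groups is a 2-fold change. Where a difference is given relative to the median of all genes, its p-value and call belong to the difference before that shift. The negative control probes of the arrays, taken as a median per array, averaged 4.85 to 5.65 over the groups, and a member under that level on every array of a group is given only a bound there. The median of all genes averaged 4.29 to 5.35 over the groups, near or under that level, while the members averaged 7.54 to 11.87. A shift of this median is therefore a shift near the floor, and it need not hold at the signals of the members. The labelled macrophages carried high signals of Adgre1 and of Csf1r, the MCSF receptor, on every array, while Clec4f, a defining marker of Kupffer cells in mouse liver, was under the negative controls on every array of both cell types. Of the 8 Kupffer markers, 2 were under them on every array of the Kupffer MCSF cultures of either day. The mean of these 8 was 7.82 at 3 days and 8.09 at 1 day in Kupffer MCSF cultures, against 8.61 at 3 days and 5.89 at 1 day in monocytic MCSF cultures. The mean of 9 sinusoidal endothelial markers was 7.86 in Kupffer MCSF cultures at 1 day (6.64 to 9.27 over arrays) and 4.00 at 3 days. With CD146 cells it was 5.44 at 1 day and 5.11 at 3 days. In monocytic cultures it was 3.97 with CD146 cells and 4.06 in MCSF at 1 day, and 4.40 and 4.08 at 3 days. The mean of 10 Ito cell markers in Kupffer cultures was 5.20 with Ito cells and 5.29 in MCSF at 1 day, and 6.22 and 6.89 at 3 days. In monocytic cultures it was 4.48 and 4.49, then 4.73 and 6.63. Whether RNA of added cells was present was not tested. Of the 19 interferon genes measured, Ifna5 was above the negative controls on all 48 arrays (5.10 to 8.38 over arrays), Ifnl3 was under them on 29 arrays, Ifng on 45, and each of the others on 44 to 48. Secreted interferon cannot be read from these RNA levels.

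Interferon-stimulated genes were highest in Kupffer cells kept for 3 days in MCSF alone. The mean signal of the 37 members was 11.87 ± 0.14 in that group (SD, n = 3 in every group). Every other Kupffer group was lower at 3 days, with 10.25 ± 0.48 with HGF, 9.82 ± 0.10 with Ito cells and 10.53 ± 0.05 with CD146 cells. At 1 day the Kupffer means were 8.82 ± 0.62 with HGF, 10.003 ± 0.07 with Ito cells, 8.90 ± 0.12 with CD146 cells and 9.51 ± 0.69 in MCSF. Monocytic macrophages at 1 day had 9.26 ± 0.07 with HGF, 9.46 ± 0.04 with Ito cells, 8.48 ± 0.05 with CD146 cells and 9.48 ± 0.04 in MCSF. At 3 days they had 8.93 ± 0.08 with HGF, 7.54 ± 0.32 with Ito cells, 9.51 ± 0.46 with CD146 cells and 8.56 ± 0.46 in MCSF. The largest spreads between replicates lay in the Kupffer MCSF and HGF groups at 1 day.

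**Figure D1:**
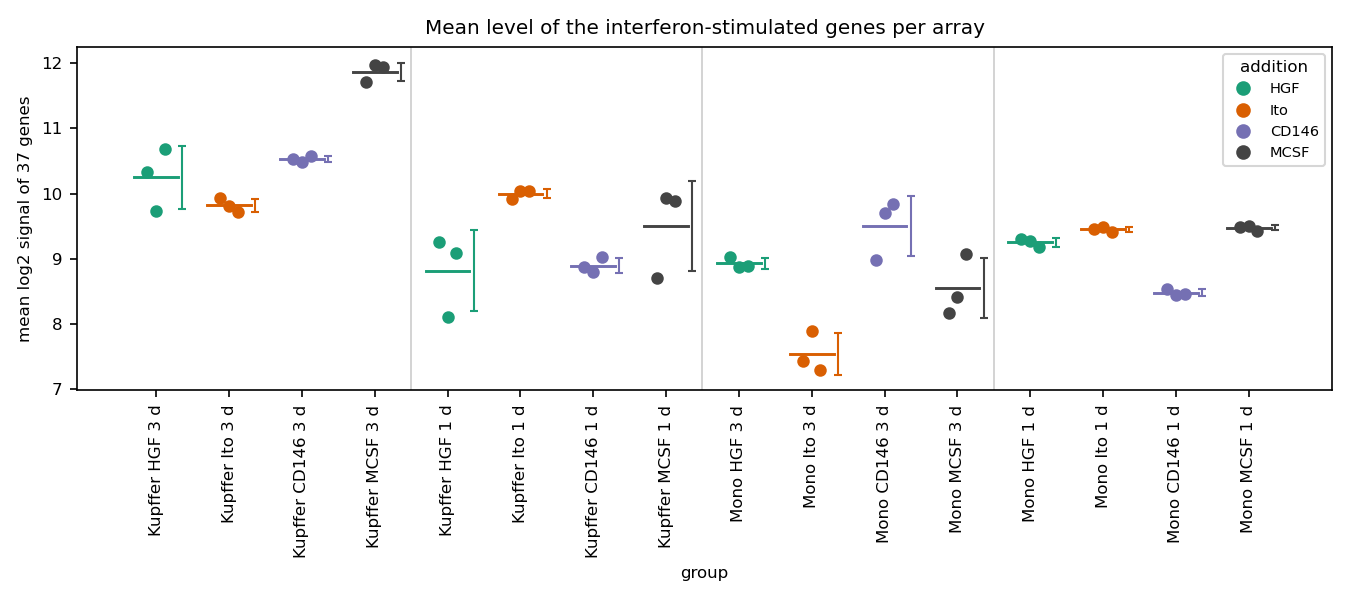
Mean log2 signal of the 37 measured members on each array (points), by cell type, day and addition, with the group mean (line) and SD (error bar, n = 3). The Kupffer MCSF arrays at 3 days stand highest, at a mean of 11.87, and the monocytic arrays with Ito cells at 3 days lowest, at 7.54.

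Of the 37 members, 32 had their highest group mean in Kupffer MCSF cultures at 3 days. The exceptions were Rsad2, Cmpk2 and Usp18, which were highest in Kupffer cells with CD146 cells at 3 days, Ifi35, highest in Kupffer cells with HGF at 3 days, and Irf9, highest in monocytic MCSF cultures at 1 day. The lowest group mean was that of monocytic macrophages with Ito cells at 3 days for 28 members. The distance between a member's highest and lowest group mean ran from 1.95 for Irf9 through a median of 4.34 to 8.34 for Gbp2, a guanylate-binding GTPase that acts on vacuoles holding pathogens. Members shared this pattern to differing degrees: the Pearson correlation of each with the mean of the other members over the 16 group means had a median of 0.851, and 23 members were above 0.8. Irgm1 (0.972), Ifit1 (0.966) and Dhx58 (0.966) followed the rest most closely, and Irf9 (0.557), Cmpk2 (0.578), Irf1 (0.587) and Irf7 (0.608) least. These correlations are descriptions over groups that share cell type and day.

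**Figure D2:**
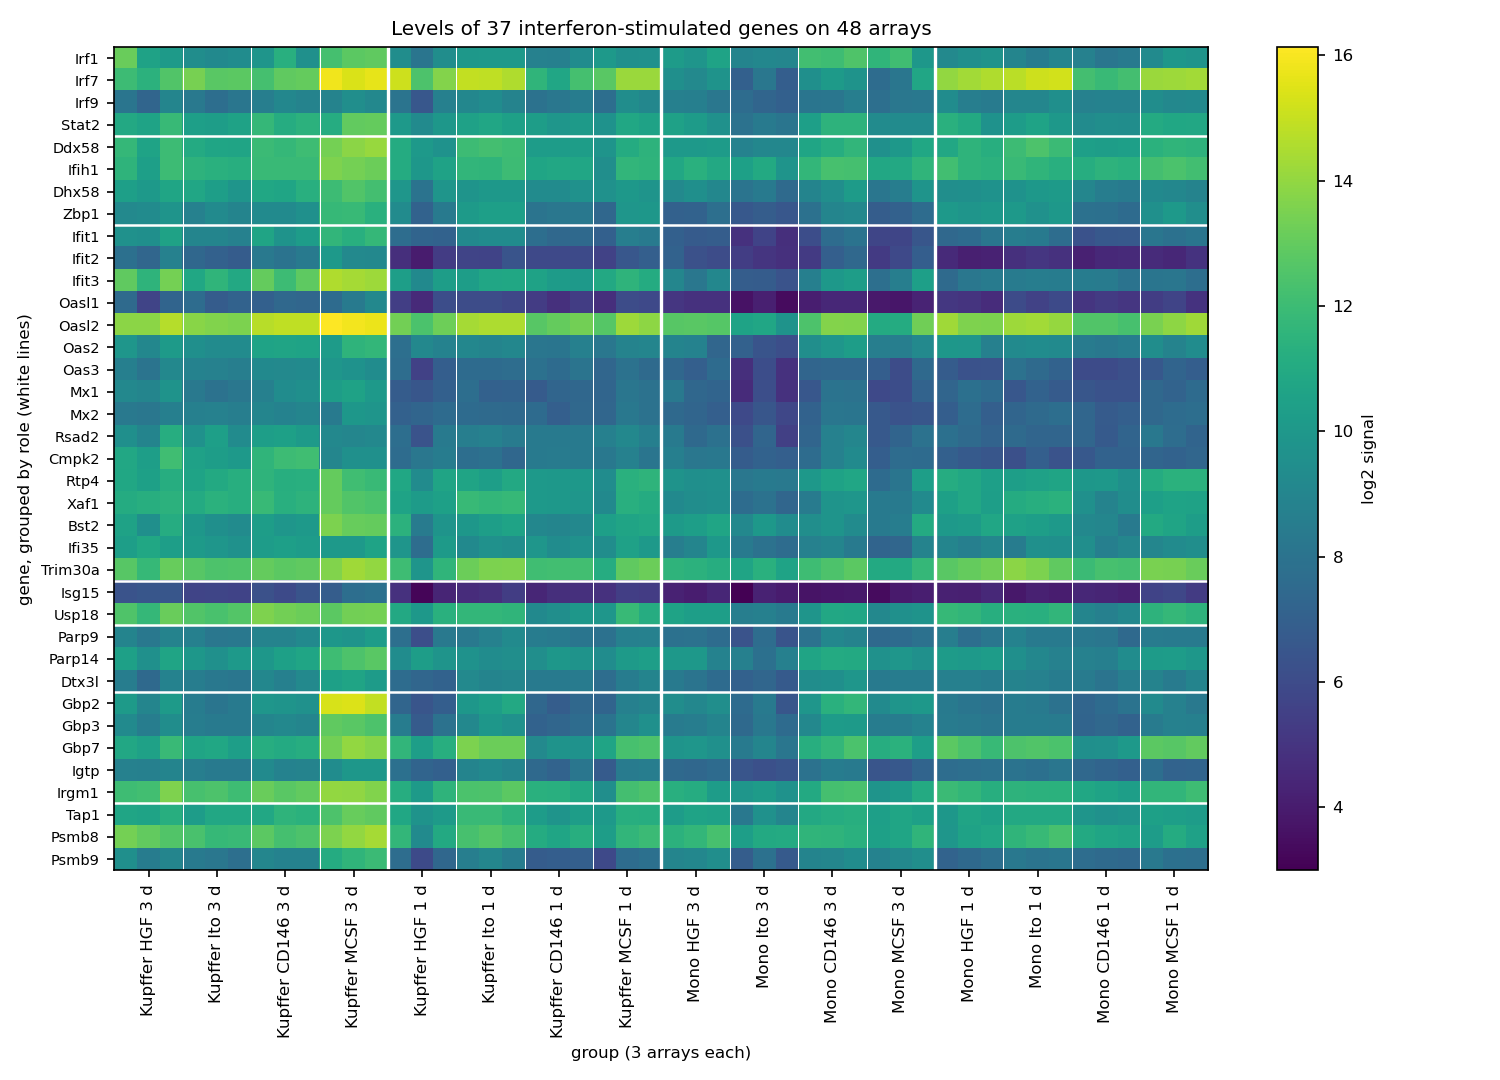
Log2 signal of each measured member (rows, ordered by role) on each of the 48 arrays (columns, ordered by cell type, day and addition). The block of Kupffer MCSF arrays at 3 days is the brightest for most rows, while Rsad2, Cmpk2, Usp18 and Ifi35 have a higher group mean in another Kupffer group at 3 days.

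The controls come first, because each addition is set against the MCSF cultures of its own cell type and day. In Kupffer cells 34 of the 37 members rose between the 1 day and 3 day MCSF cultures and 0 fell, while 21.5% of all genes were higher and 10.2% lower. The median of all genes was itself 0.15 higher at 3 days, and the values of this comparison are given relative to it; all 37 members lay above it, with a median of 2.21. Gbp2 had 15.35, 15.45 and 14.95 at 3 days, against 7.21, 8.71 and 8.92 at 1 day, which is a rise of 6.82 ± 0.40 (SE; adjusted p = 2.24e-17). The Gbp2 arrays of the 2 days were far apart, and replicate 1 was the lowest at 1 day. Irf7 rose less, with 15.84, 15.42 and 15.66 at 3 days, against 12.79, 14.13 and 14.16 at 1 day, a difference of 1.79 ± 0.51 (adjusted p = 0.00272). Irf1 had 12.24, 12.82 and 12.93 at 3 days, against 10.06, 9.61 and 9.65 at 1 day, a rise of 2.74.

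The other roles moved the same way in the Kupffer controls. Of the sensors 4 of 4 rose, and Ddx58, the RIG-I receptor of viral RNA, had 13.40, 13.85 and 14.13 at 3 days, against 9.78, 11.07 and 11.46 at 1 day. Of the effectors 14 of 16 rose. Ifit1, which binds viral RNA, had 11.62, 11.29 and 11.72 at 3 days, against 7.05, 8.64 and 8.41 at 1 day. Isg15, a ubiquitin-like modifier, had 6.88, 7.76 and 7.88 at 3 days, against 4.84, 5.45 and 5.34 at 1 day, where it lay at the level of the negative controls. All 5 GTPases, all 3 genes of the PARP and DTX3L group and all 3 antigen-processing genes rose, with Psmb9, an immunoproteasome subunit, up by 4.26. Psmb8, another such subunit, had 13.56, 13.99 and 14.34 at 3 days, against 10.32, 11.63 and 11.93 at 1 day. The members that did not pass were Irf9 (0.28, adjusted p = 0.426), Ifi35 (0.13, adjusted p = 0.666) and Rsad2 (0.11, adjusted p = 0.721). The call of Cmpk2 (0.89) was lost without the 1 day replicate 3 or the 3 day replicate 2 or 3 (adjusted p up to 0.0549), and those of Rtp4 and Trim30a without the 1 day replicate 1 (adjusted p = 0.124 and 0.0722). Marker levels moved too. The macrophage list averaged 16.05 at 3 days and 14.65 at 1 day, and the Ito list 6.89 at 3 days and 5.29 at 1 day. The B cell list averaged 3.84 at 3 days and 8.20 at 1 day, and the hepatocyte list 5.25 at 3 days and 8.68 at 1 day. Cholangiocyte markers averaged 3.71 at 3 days and 7.12 at 1 day, and cell cycle genes 8.44 at 3 days and 10.49 at 1 day. Their part in the result was not tested.

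In monocytic macrophages more members were lower than higher after the longer time in MCSF. Of the members 20 were lower at 3 days than at 1 day and 3 were higher, while 9.82% of all genes were lower and 19.5% higher. Relative to the median of all genes, which was 0.13 higher at 3 days, the median member differed by -1.24. Irf7 had 7.66, 8.18 and 10.79 at 3 days, against 14.16, 14.22 and 14.31 at 1 day, a difference of -5.49 ± 0.51 (adjusted p = 5.6e-11). The 3 arrays at 3 days were below the 1 day arrays, with replicate 3 nearest to them. Falls also came in Rtp4 (-2.76), in the sensor Zbp1 (-2.68) and in Ifit1, with 5.75, 5.76 and 6.50 at 3 days against 8.17, 7.91 and 8.10 at 1 day (-2.19). Isg15 had 3.36, 3.95 and 4.10 at 3 days, under the negative controls, against 5.63, 5.78 and 5.26 at 1 day. Its 1 day mean of 5.56 lay at the negative control level of 5.47, so its fall is bounded at only 1.01-fold. Oasl1, also called lower, was under the negative controls at 3 days and has no bound. The 3 that rose were Irf1 (1.43), Psmb9 (1.02) and Ifit2, which was under the negative controls at 1 day and at least 1.46-fold higher at 3 days. Irf1 had 11.61, 12.11 and 9.96 at 3 days, against 9.26, 9.94 and 9.78 at 1 day, and its call was lost without the 1 day replicate 1 or the 3 day replicate 1 or 2 (adjusted p 0.0553 to 0.111). Ifit2 was lost without the 1 day replicate 2 or the 3 day replicate 3 (adjusted p up to 0.135), and Psmb9 without the 1 day replicate 2 or 3 or the 3 day replicate 3 (adjusted p up to 0.0708). Marker lists differed here as well: the cell cycle list averaged 9.83 at 3 days (8.02 to 13.09 over arrays) and 7.71 at 1 day, and the Kupffer list 8.61 at 3 days and 5.89 at 1 day. The Ito list averaged 6.63 at 3 days, when 5 of its 10 genes were under the negative controls, and 4.49 at 1 day, with 7 under them. The B cell list averaged 3.72 at 3 days, with all 3 genes under the negative controls, and 6.30 at 1 day. Their part in the result was not tested.

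At 3 days in MCSF, Kupffer cells had more RNA of 36 of the 37 members than monocytic macrophages and less of 0, against 6.38% of all genes higher and 5.7% lower. The arrays of the 2 cell types did not overlap for any of the 37 members, and the median member differed by 3.05. The share of all genes without overlap was not computed. Irf7 differed by 6.76 ± 0.51 (adjusted p = 1.45e-13, a 109-fold difference), Gbp2 by 5.55 ± 0.40 and Ifit1 by 5.54 ± 0.36. Gbp2 had 9.26, 9.83 and 9.99 in the monocytic arrays, all below the Kupffer arrays given above. For Isg15, under the negative controls in monocytic cells, the difference was at least 3.91-fold, and for Oasl1, an OAS-like protein, at least 7.02-fold. Irf9 did not pass (1.06, adjusted p = 0.0584). The calls of Irf1 and Rsad2 depended on single arrays: Irf1 differed by 1.44 and by 0.80 without the monocytic replicate 3 (adjusted p = 0.359), and was also lost without the Kupffer replicate 2 or 3 (0.118 and 0.152), while Rsad2 was lost without the monocytic replicate 1 (0.0503).

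At 1 day in MCSF the 2 cell types were close in the levels of the members. Kupffer cells had more of 3 members and less of 2, against 9.73% of all genes higher and 11.6% lower, and the median difference was -0.03. Ifit3, a partner of Ifit1, was higher by 3.20 ± 0.44 (adjusted p = 8.16e-07), Ifit2 by at least 1.86-fold and Cmpk2 by 1.13, although Cmpk2 was lost without the Kupffer replicate 2 (adjusted p = 0.0612). The viral RNA sensor Ifih1 differed by -1.38 and Gbp7 by -1.002, but without the Kupffer replicate 1 these were -0.67 (adjusted p = 0.183) and -0.43 (adjusted p = 0.471). Gbp7 was lost without any of the 3 monocytic arrays too (adjusted p 0.0747 to 0.103), and without the Kupffer replicate 3 the count of members called was 8. Markers of other cells differed between these cultures. Endothelial markers averaged 7.86 in Kupffer and 4.06 in monocytic cultures, hepatocyte markers 8.68 and 5.53, and cholangiocyte markers 7.12 and 3.45. B cell markers averaged 8.20 (3.82 to 10.74 over arrays) and 6.30, and cell cycle genes 10.49 and 7.71. Their part in the result was not tested. Tested directly, the change with time differed between the cell types for 34 members, all toward Kupffer cells, against 9.63% of all genes higher and 8.84% lower.

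**Figure D3:**
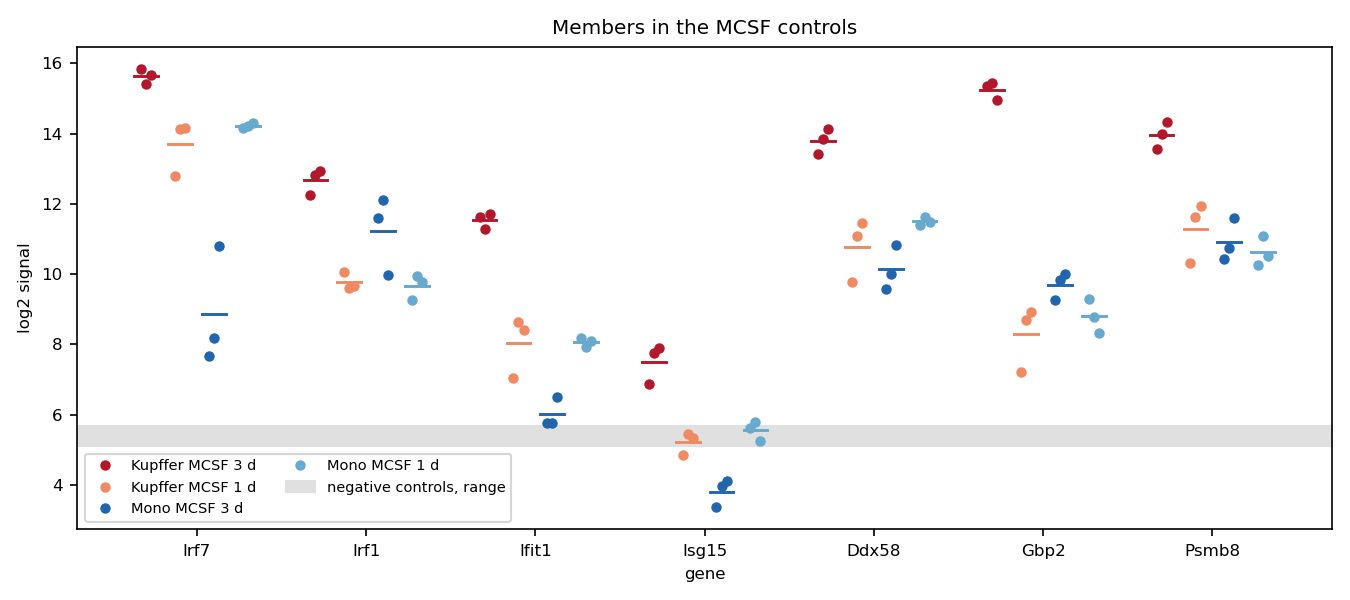
Log2 signal of Irf7, Irf1, Ifit1, Isg15, Ddx58, Gbp2 and Psmb8 on each MCSF control array (points) with the group mean (bar), for Kupffer cells at 3 and 1 days and monocytic macrophages at 3 and 1 days; the grey band is the range of the negative control levels. Each gene stands highest in Kupffer cells at 3 days, and Irf7 has its lowest control mean, 8.87, in monocytic macrophages at 3 days.

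With any addition, Kupffer cells at 3 days had less RNA of most members than their MCSF controls. With HGF 32 members fell and 1 rose, against 13.1% of all genes lower and 14.5% higher. With Ito cells the counts were 32 and 1, against 12.3% lower and 14.5% higher, and with CD146 cells 26 and 2, against 12.4% lower and 14% higher. The median member differed by -1.49 with HGF, by -2.07 with Ito cells and by -1.25 with CD146 cells. The Ito values of this comparison are relative to the median of all genes, which was 0.11 higher than in MCSF. All 3 comparisons use the same 3 MCSF arrays, so they are not independent of one another. In bulk RNA, fewer cells of a type and less RNA per cell cannot be told apart.

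Irf7 fell with each addition among the transcription factors. It had 12.001, 11.43 and 12.55 with HGF, 13.44, 12.75 and 12.84 with Ito cells and 12.28, 12.92 and 13.03 with CD146 cells, against 15.84, 15.42 and 15.66 in MCSF. Every array with an addition was below every MCSF array, and the differences were -3.64 ± 0.51 (HGF, adjusted p = 2.12e-07), -2.74 ± 0.51 (Ito, adjusted p = 7.75e-05) and -2.90 ± 0.51 (CD146, adjusted p = 1.51e-05). Irf1 had 13.15, 10.54 and 10.17 with HGF, 9.45, 9.25 and 9.38 with Ito cells and 9.86, 11.29 and 9.57 with CD146 cells, against 12.24, 12.82 and 12.93 in MCSF. It differed by -1.38 with HGF (adjusted p = 0.0245), where replicate 1 was above the MCSF arrays, and the call was lost without the MCSF replicate 2 or 3 or the HGF replicate 2 or 3 (adjusted p 0.0777 to 0.270). With Ito cells Irf1 differed by -3.41 and with CD146 cells by -2.42. Irf9 passed with HGF (-1.04, adjusted p = 0.0335) and Ito cells (-1.22, adjusted p = 0.0235), not with CD146 cells (-0.30, adjusted p = 0.656); it was lost in both without the MCSF replicate 2 or 3 or the replicate 2 of the addition, and with HGF also without its replicate 1 (adjusted p 0.0517 to 0.303). Stat2, a part of ISGF3, passed with HGF and Ito cells and was -0.95 with CD146 cells, and its HGF call was lost without the MCSF replicate 2 or 3 or the HGF replicate 2 (adjusted p 0.0698 to 0.0916).

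All 4 sensors fell with each addition. Ddx58 had 11.74, 10.61 and 12.02 with HGF, 11.01, 10.71 and 10.67 with Ito cells and 11.96, 11.72 and 12.03 with CD146 cells, against 13.40, 13.85 and 14.13 in MCSF. The groups did not overlap, and the differences were -2.34, -3.11 and -1.89. Among the 16 effectors 13, 12 and 9 fell with HGF, Ito cells and CD146 cells. Ifit1 had 9.63, 9.52 and 10.59 with HGF, 8.97, 8.99 and 8.75 with Ito cells and 10.69, 9.76 and 10.25 with CD146 cells, against 11.62, 11.29 and 11.72 in MCSF, and differed by -1.63, -2.75 and -1.31. Bst2, a membrane protein that holds budding virions on the cell, differed by -2.79, -3.71 and -3.11. Isg15 had 6.38, 6.50 and 6.50 with HGF, 5.71, 5.72 and 5.64 with Ito cells and 6.24, 5.95 and 6.40 with CD146 cells, against 6.88, 7.76 and 7.88 in MCSF, and all its arrays with an addition were below those in MCSF. It differed by -1.05, -1.93 and -1.31, the first of which was lost without the MCSF replicate 3 (adjusted p = 0.0542).

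The GTPases held the largest falls. Gbp2 had 10.16, 8.96 and 10.13 with HGF, 8.51, 8.08 and 8.34 with Ito cells and 9.89, 9.79 and 9.63 with CD146 cells, against 15.35, 15.45 and 14.95 in MCSF. Its lowest MCSF array was more than 4 log2 units above its highest array with an addition. The difference was -5.50 ± 0.40 with HGF (adjusted p = 1.84e-14, 45.3-fold lower), -7.05 ± 0.40 with Ito cells (adjusted p = 1.89e-17) and -5.48 ± 0.40 with CD146 cells (adjusted p = 2.09e-14, 44.6-fold lower). Gbp3 differed by -3.64, -4.38 and -3.70, and Gbp7 by -2.61, -3.20 and -2.59. In antigen processing Psmb9 differed by -2.52, -3.51 and -2.66. Psmb8 had 13.37, 12.97 and 12.57 with HGF, 12.38, 11.82 and 11.88 with Ito cells and 12.83, 12.24 and 12.47 with CD146 cells, against 13.56, 13.99 and 14.34 in MCSF. It passed with Ito cells (-2.05) and CD146 cells (-1.45) and not with HGF (-0.99, adjusted p = 0.0549). Parp14 fell with all 3 additions, with differences of -2.18, -2.69 and -2.07.

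**Figure D4:**
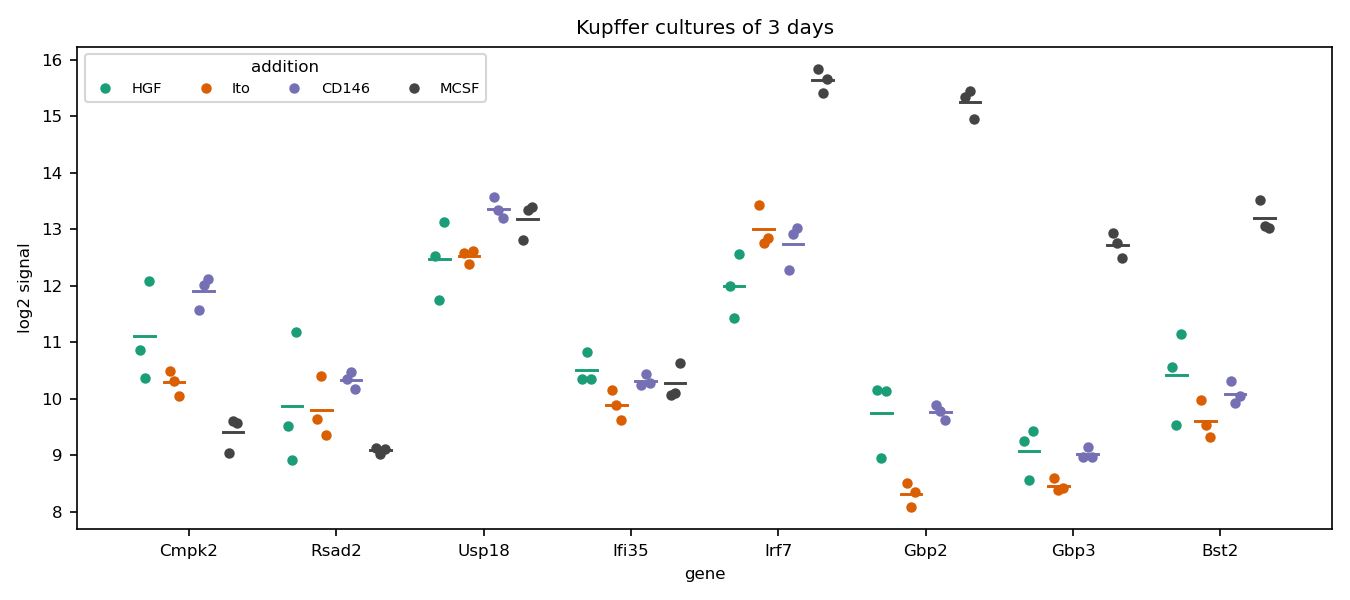
Log2 signal of 8 members in Kupffer cells at 3 days, one point per array with the mean as a bar, for HGF, Ito cells, CD146 cells and MCSF from left to right. Gbp2, Gbp3, Irf7 and Bst2 are highest in MCSF without overlap, while Cmpk2 is lowest there.

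A few members did not follow the rest in Kupffer cells at 3 days. Cmpk2, a mitochondrial nucleotide kinase, had 10.87, 10.37 and 12.09 with HGF, 10.50, 10.31 and 10.05 with Ito cells and 11.58, 12.01 and 12.13 with CD146 cells, against 9.03, 9.61 and 9.57 in MCSF. Every array with an addition was above every MCSF array. It rose by 1.71 ± 0.32 with HGF (adjusted p = 4.79e-05) and by 2.50 ± 0.32 with CD146 cells (adjusted p = 4.23e-08). With Ito cells it rose by 0.77 (adjusted p = 0.0378), a call lost without the MCSF replicate 1 or 3 or the Ito replicate 1 or 2 (adjusted p 0.0541 to 0.158). Its genome neighbour Rsad2, viperin, which makes a chain-terminating nucleotide, had 9.52, 8.92 and 11.18 with HGF, 9.63, 10.40 and 9.35 with Ito cells and 10.34, 10.47 and 10.18 with CD146 cells, against 9.13, 9.01 and 9.11 in MCSF. Rsad2 passed with CD146 cells (1.24 ± 0.45, adjusted p = 0.0363), but not when any 1 of the 6 arrays was left out (adjusted p 0.0595 to 0.102), and did not pass with HGF (0.79, adjusted p = 0.224) or Ito cells (0.60, adjusted p = 0.275). Usp18, the protease that removes Isg15 and damps the receptor, had 12.53, 11.74 and 13.12 with HGF, 12.59, 12.38 and 12.61 with Ito cells and 13.57, 13.33 and 13.19 with CD146 cells, against 12.82, 13.35 and 13.40 in MCSF. Its groups overlapped with HGF and CD146 cells, and none of its differences passed (adjusted p 0.109 to 0.790), nor did those of Ifi35 (adjusted p 0.568 to 0.960).

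**Figure D5:**
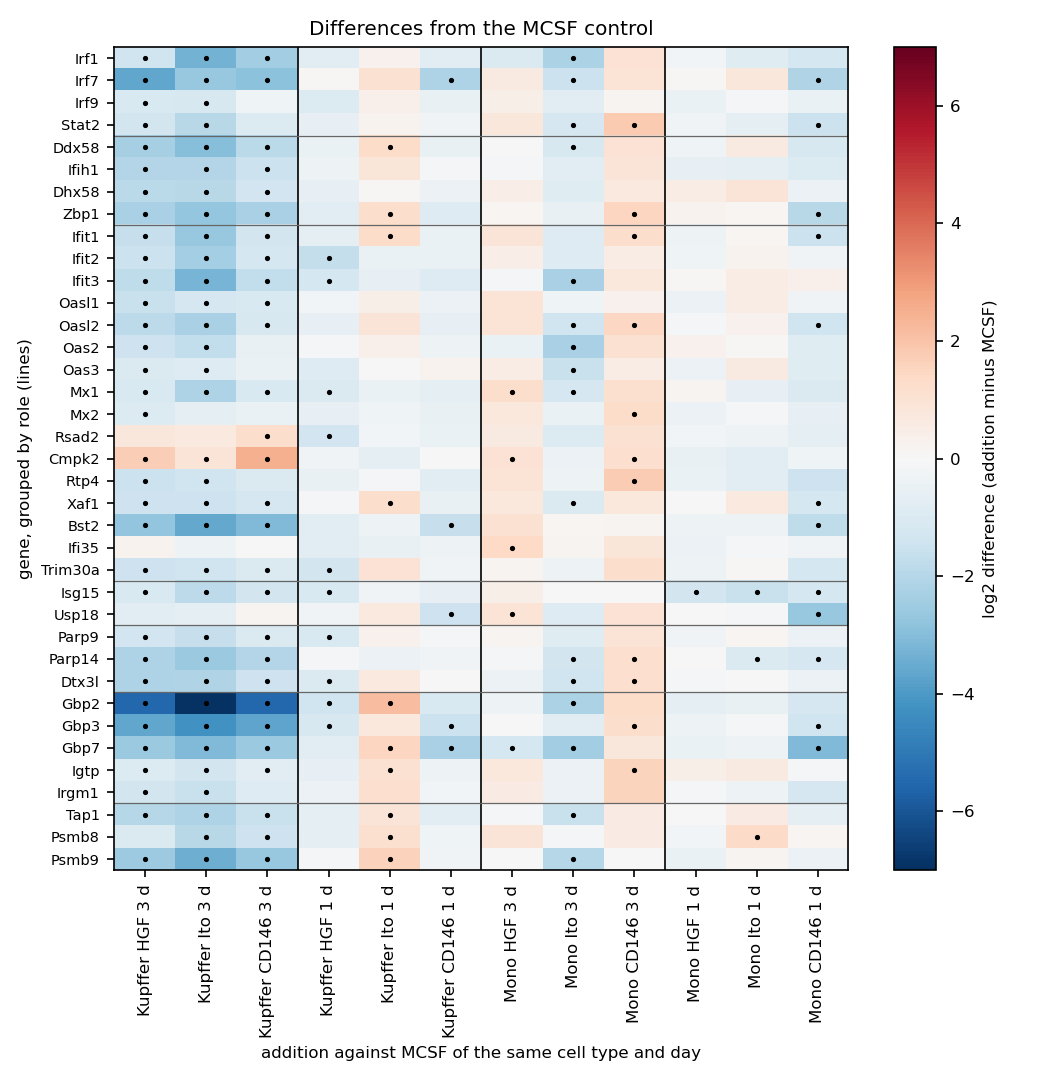
Log2 difference from the MCSF control of the same cell type and day, as fitted, for each measured member (rows) and each of the 12 additions (columns); dots mark an adjusted p under 0.05. The 3 columns of Kupffer cells at 3 days are negative for most rows, with Cmpk2 positive, and the column of monocytic macrophages with CD146 cells at 3 days is mostly positive.

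Of 104 other interferon pathway genes measured, 49 fell with HGF, 49 with Ito cells and 43 with CD146 cells in Kupffer cells at 3 days, and 4, 7 and 6 rose. Over all genes 13.1%, 12.3% and 12.4% fell and 14.5%, 14.5% and 14% rose. Of 51 other interferon-stimulated genes measured, 31 fell and 4 rose with HGF, 29 and 4 with Ito cells, and 27 and 5 with CD146 cells. Of 9 receptor and JAK-STAT genes 6, 6 and 7 fell and none rose. Jak2, the kinase of the interferon gamma receptor and of several cytokine receptors, had 10.82, 9.81 and 10.24 with HGF, 9.58, 10.02 and 9.86 with Ito cells and 10.28, 10.10 and 10.01 with CD146 cells, against 14.13, 14.57 and 15.05 in MCSF. It differed by -4.29, -4.87 and -4.45, and Ifnar2 by -2.72, -2.74 and -2.73. Among sensors and adaptors 8 of 15 fell with HGF, 8 with Ito cells (2 rose) and 4 with CD146 cells, with Ikbke, a kinase that activates interferon regulatory factors, at -3.67, -3.42 and -3.51. Of the chemokines, Cxcl9 had 4.01, 3.74 and 4.32 with HGF, 4.46, 3.96 and 4.24 with Ito cells and 3.91, 3.82 and 4.31 with CD146 cells, all under the negative controls, against 9.46, 9.55 and 9.21 in MCSF, which is at least 19.5-fold, 18.4-fold and 18.8-fold lower. Cxcl10 fell with Ito cells (-2.77, adjusted p = 0.000681), and its difference was 1.56 with HGF (adjusted p = 0.0506) and 1.03 with CD146 cells (adjusted p = 0.246). Of 19 interferon genes 0, 1 and 1 rose and none fell, the 1 being Ifnb1, which was under the negative controls on 47 of the 48 arrays.

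Other gene groups differed between these cultures as well. The mean of 9 macrophage markers was 13.14 to 13.65 over the arrays with HGF, 13.64 to 13.87 with Ito cells and 13.35 to 13.41 with CD146 cells, against 15.90 to 16.23 in MCSF. The mean of 5 cell cycle genes was 13.62 to 13.99 with HGF, 13.33 to 13.52 with Ito cells and 13.71 to 13.83 with CD146 cells, against 8.38 to 8.48 in MCSF. The mean of 4 cholangiocyte markers was 8.92 to 9.82, 6.73 to 7.63 and 7.99 to 8.49, against 3.64 to 3.76 in MCSF, where all 4 were under the negative controls. The mean of 4 neutrophil markers was 7.59 to 8.50, 11.10 to 12.37 and 6.73 to 7.73, against 5.75 to 6.25 in MCSF. The part of these markers in the fall of the interferon-stimulated genes was not tested.

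At 1 day members rose with Ito cells in Kupffer cultures, while those called with HGF or CD146 cells were lower; HGF was not tested against the other additions. With Ito cells 10 members rose and 0 fell, against 5.47% of all genes higher and 18% lower, and values here are relative to the median of all genes, which was 0.24 lower than in MCSF. Gbp2 had 9.95, 10.37 and 10.92 with Ito cells, against 7.21, 8.71 and 8.92 in MCSF, a rise of 2.38 ± 0.40 (adjusted p = 0.000141). Before the shift this rise was 2.13. Ifit1 had 9.24, 9.38 and 9.39 with Ito cells, against 7.05, 8.64 and 8.41 in MCSF (1.55), Ddx58 had 11.99, 12.22 and 12.03 against 9.78, 11.07 and 11.46 in MCSF (1.55), and Psmb8 had 12.31, 12.61 and 12.27 against 10.32, 11.63 and 11.93 in MCSF (1.35). In each of these the MCSF replicate 1 was the lowest array, and its B cell markers averaged 3.82, against 10.04 and 10.74 in the other MCSF arrays. Psmb9 rose by 1.83 and Gbp7 by 1.72, while Irf7 (1.33, adjusted p = 0.115) and Irf1 (0.55, adjusted p = 0.680) did not pass. Without the MCSF replicate 1 only 2 members were called; Gbp7, Ifit1, Ddx58, Igtp, Xaf1, Zbp1, Psmb8 and Tap1 were lost (adjusted p 0.0705 to 0.481). Psmb8 was also lost without any 1 Ito array (adjusted p up to 0.118), Tap1 without the Ito replicate 1 or 2 (up to 0.0639) and Zbp1 without the Ito replicate 2 or 3 (up to 0.0722).

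Of the 104 other pathway genes 28 rose with Ito cells and 3 fell, against 5.47% of all genes higher and 18% lower. By list, 17 of 51 other interferon-stimulated genes rose and 0 fell, and 2 of 15 sensors and adaptors, 2 of 9 receptor and JAK-STAT genes and 3 of 7 inhibitors rose, and 1 inhibitor, Trim24, fell. Of 19 interferon genes 1 rose and 2 fell, the 2 being Ifna6 and Ifna11, both under the negative controls in both groups. All 3 chemokines passed, of which Cxcl11 was under the negative controls on every array of both groups. Cxcl9, a ligand induced by interferon gamma, had 8.80, 8.72 and 9.07 with Ito cells, against 3.79, 5.16 and 4.46 in MCSF, under the negative controls, and was at least 12.7-fold higher (adjusted p = 8.41e-17). Cxcl10 had 11.08, 10.79 and 11.17 with Ito cells, against 7.30, 6.81 and 6.22 in MCSF (4.48). Ifng itself had 6.73, 5.82 and 6.29 with Ito cells, against 3.43, 4.29 and 4.14 in MCSF, under the negative controls, and was at least 2.12-fold higher (adjusted p = 2.11e-06). The inhibitor Socs1 rose by 2.96, with 1 of its 3 MCSF arrays under the negative controls. The 3 Ito arrays are those of the series on which Ifng stood above the negative controls. Neutrophil markers averaged 12.19 to 12.51 with Ito cells, against 7.43 to 8.95 in MCSF, B cell markers 7.85 to 8.36 against 3.82 to 10.74 in MCSF, and T and NK cell markers 5.66 to 5.79 against 4.27 to 6.83 in MCSF. Their part in the result was not tested.

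With HGF at 1 day 10 members were lower in Kupffer cells and 0 higher, against 13.4% of all genes lower and 4.13% higher, and the median of all genes was 0.17 lower. Ifit2 (-1.50), Gbp2 (-1.20) and Rsad2 (-1.17) fell most on the scale relative to that median, and Gbp2 had 7.30, 6.48 and 6.94 with HGF, against 7.21, 8.71 and 8.92 in MCSF. The Gbp2 groups overlapped through the MCSF replicate 1. The count of lower members ran from 1 without the HGF replicate 2, and 2 and 3 without the MCSF replicate 3 and 2, to 16 without the HGF replicate 1 and 21 without the MCSF replicate 1. Irf7 had 15.12, 12.48 and 13.68 with HGF, against 12.79, 14.13 and 14.16 in MCSF, and its HGF arrays lay on both sides of the MCSF arrays. With CD146 cells 5 members were lower and 0 higher, against 2.46% lower and 1.32% higher over all genes. These were Gbp7 (-2.27), Irf7 (-2.16), Bst2 (-1.61), Gbp3 (-1.50) and Usp18 (-1.42). Irf7 had 11.58, 10.76 and 12.26 with CD146 cells, all below 12.79, 14.13 and 14.16 in MCSF, and its call was lost without the CD146 replicate 2 (adjusted p = 0.0947). Bst2 was lost without any 1 of 5 arrays, the MCSF replicate 1 being the exception (adjusted p up to 0.147), and Usp18 without the MCSF replicate 2 or the CD146 replicate 1. The count was 3 without the MCSF replicate 2 or the CD146 replicate 1 or 2, and 11 without the MCSF replicate 1. Neutrophil markers averaged 7.39 with HGF and 11.22 with CD146 cells, against 8.25 in MCSF. B cell markers averaged 5.89 and 4.89, against 8.20 in MCSF (3.82 to 10.74 over arrays), and endothelial markers 7.39 and 5.44, against 7.86 in MCSF. Their part in the result was not tested.

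In monocytic macrophages at 1 day, CD146 cells were the addition with the most members called. With them 12 members fell and 0 rose, against 1.33% of all genes lower and 1% higher. Gbp7 had 9.52, 9.61 and 10.04 with CD146 cells, against 12.81, 12.71 and 12.95 in MCSF, a difference of -3.10 ± 0.36 (adjusted p = 1.36e-07). Usp18 had 8.97, 8.73 and 9.10 with CD146 cells, against 11.50, 11.76 and 11.47 in MCSF (-2.64, adjusted p = 7.08e-07). Irf7 had 12.21, 11.92 and 12.22 with CD146 cells, against 14.16, 14.22 and 14.31 in MCSF (-2.11), and Ifit1 had 6.33, 6.62 and 6.65 against 8.17, 7.91 and 8.10 in MCSF (-1.53). In all 4 the groups were well apart. Gbp7, Irf7, Usp18, Bst2 and Gbp3 passed with CD146 cells at 1 day in both cell types. The count was 5 to 8 when any 1 array was left out, with 7 and 5 without the MCSF replicates 1 and 2, and 6, 5 and 6 without the CD146 replicates 1, 2 and 3. Irf7 was lost without the MCSF replicate 3 (adjusted p = 0.0532) or the CD146 replicate 2 (0.0681), and Ifit1 without the CD146 replicate 1 (0.0641).

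Few members passed with HGF or Ito cells in monocytic macrophages at 1 day. With HGF 1 member, Isg15, was lower and 0 were higher, against 37.2% of all genes lower and 0.22% higher. The median of all genes was 0.55 lower than in MCSF, and 35 of the 37 members lay above that shift. This median was 4.29 with HGF and 4.88 in MCSF, under the negative controls at 4.86 and 5.47. The shift thus lies at the floor of the arrays, and without it the median member differed by -0.26. With Ito cells 1 member rose and 2 fell, against 1.91% higher and 13.6% lower, with the median of all genes 0.28 lower. Psmb8 had 11.61, 11.87 and 12.33 with Ito cells, against 10.26, 11.08 and 10.51 in MCSF, a relative rise of 1.61 (adjusted p = 0.0185). Before the shift this rise was 1.32. Parp14 (-0.72 relative) and Isg15 were lower. Isg15 was under the negative controls with HGF and with Ito cells, and its bound against that level was 1.62-fold in each. The control level itself averaged 4.86 with HGF and with Ito cells, against 5.47 in MCSF, where Isg15 averaged 5.56. The bound therefore cannot be told apart from the shift in the control level. The Psmb8 call was lost without the MCSF replicate 1 or 3 or the Ito replicate 3 (adjusted p up to 0.0956), Parp14 without the MCSF replicate 1 or 2 or the Ito replicate 2 or 3 (up to 0.121), and the count was 1 without the MCSF replicate 1 or the Ito replicate 3.

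At 3 days the 3 additions gave different counts in monocytic macrophages. With Ito cells 16 members fell and 0 rose, against 6.66% of all genes lower and 5.8% higher. Gbp7 (-2.44), Oas2, of the family that makes the activator of RNase L (-2.28), and Ifit3 (-2.26) fell most. Gbp2 had 7.57, 8.33 and 6.53 with Ito cells, against 9.26, 9.83 and 9.99 in MCSF (-2.22), and Irf1 had 8.93, 9.08 and 9.02 against 11.61, 12.11 and 9.96 in MCSF (-2.22, adjusted p = 0.000922). Neither gene's groups overlapped. Irf7 had 7.04, 8.21 and 6.91 with Ito cells, against 7.66, 8.18 and 10.79 in MCSF, where replicate 3 was high. Its difference was -1.49 (adjusted p = 0.0470) and -0.53 without that array (adjusted p = 0.556), and it was lost without the Ito replicate 1 or 3 too (0.173 and 0.203). That MCSF replicate 3 also had the highest mean of cell cycle genes of its group, whose arrays ran from 8.02 to 13.09, against 12.53 to 12.98 with Ito cells.

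With CD146 cells at 3 days 11 members rose in monocytic macrophages and 0 fell, against 1.22% of all genes higher and 1.18% lower. Stat2 rose by 1.81 ± 0.37 (adjusted p = 0.00257), Rtp4 by 1.78 and Igtp, a GTPase of the immunity-related family, by 1.53. Ifit1 had 6.10, 7.66 and 7.98 with CD146 cells, against 5.75, 5.76 and 6.50 in MCSF (1.25, adjusted p = 0.0495), so its groups overlapped. Gbp2 had 9.92, 11.35 and 11.69 with CD146 cells, against 9.26, 9.83 and 9.99 in MCSF, and did not pass (1.29, adjusted p = 0.0807); Irf1 (1.02, adjusted p = 0.329) did not either. In both genes the CD146 arrays were mostly above those in MCSF. Of the calls named, Stat2 and Igtp held with any 1 array left out, while Rtp4 was lost without the MCSF replicate 1 or 2 or the CD146 replicate 2 or 3 (adjusted p 0.0741 to 0.197), as was Ifit1 (0.172 to 0.358). The count was 4 and 6 without the MCSF replicates 1 and 2, and 3 and 2 without the CD146 replicates 2 and 3. Among the 51 other interferon-stimulated genes 12 rose and 0 fell.

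With HGF at 3 days 4 members rose in monocytic macrophages and 1 fell, against 7.56% of all genes higher and 5.46% lower. The 4 were Ifi35 (1.39), Mx1 (1.25), Cmpk2 (0.99) and Usp18 (0.97), and the 1 was Gbp7 (-1.22). Mx1 encodes an antiviral GTPase that is known to be non-functional in most laboratory strains, BALB/c among them. Cmpk2 had 8.69, 8.19 and 8.25 with HGF, against 6.91, 7.66 and 7.59 in MCSF, with no overlap. Each of the 5 calls was lost when certain single arrays were left out: the count was 0 without the MCSF replicate 1 or 2, 2 without the HGF replicate 1, 1 without the HGF replicate 3 and 14 without the MCSF replicate 3.

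The 2 added cell types can be compared without the MCSF arrays. At 1 day members were higher with Ito cells than with CD146 cells in both macrophages: 18 were higher and 0 lower in Kupffer cells, against 6.6% of all genes higher and 20.8% lower, and 15 and 0 in monocytic macrophages, against 3% higher and 16.8% lower. Relative to the median of all genes, 0.27 and 0.30 lower with Ito cells, Irf7 was higher by 3.53 in Kupffer and 3.23 in monocytic cells, and Gbp7 by 4.02 and 3.06. Irf7 had 14.93, 14.88 and 14.54 with Ito cells, against 11.58, 10.76 and 12.26 with CD146 cells, in Kupffer cultures, and 14.79, 15.13 and 15.21 against 12.21, 11.92 and 12.22 in monocytic ones. Both sets stood apart without overlap. In the Kupffer cultures B cell markers averaged 8.05 with Ito cells and 4.89 with CD146 cells, and cell cycle genes 9.27 with Ito cells and 11.55 with CD146 cells, and their part was not tested.

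At 3 days 31 members were lower in monocytic macrophages with Ito cells than with CD146 cells and 0 higher, against 5.49% of all genes lower and 5.82% higher. The median member differed by -1.99, Gbp2 by -3.51 ± 0.40 (adjusted p = 4.47e-08), Oas2 by -3.35 and Irf1 by -3.24. Gbp2 had 7.57, 8.33 and 6.53 with Ito cells, against 9.92, 11.35 and 11.69 with CD146 cells. The mean of the 5 cell cycle genes was 12.81 with Ito cells (12.53 to 12.98 over arrays) and 8.31 with CD146 cells (8.07 to 8.68), and its part in this difference was not tested. In Kupffer cells 4 members were lower with Ito cells at 3 days and 0 higher, against 1.54% of all genes in each direction. These were Cmpk2 (-1.62, adjusted p = 0.00117), Ifit3 (-1.52), Gbp2 (-1.46) and Ifit1 (-1.33). Cmpk2 held with any 1 array left out, Gbp2 was lost without each of the 6, and the count was 1 without the CD146 replicate 1 or 3 or the Ito replicate 1 or 3 and 2 without the Ito replicate 2.

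The difference between the 2 macrophages in their response to an addition was tested as such, as the Kupffer response minus the monocytic response. At 3 days the Kupffer response was the more negative for 29 members with HGF and the more positive for 0, against 7.61% of all genes more negative and 7.58% more positive. With Ito cells the counts were 8 and 0, against 4.16% and 4.58%, and with CD146 cells 30 and 1, against 8.54% and 9.64%. The count with Ito cells was 14 without the monocytic MCSF replicate 3. Gbp2 differed by -5.13 with HGF, -4.72 with Ito cells and -6.77 with CD146 cells, and the 1 member in the other direction was Cmpk2. At 1 day the response was more positive for 2 members with Ito cells, Gbp2 and Gbp7, against 1.85% of all genes more positive and 1.9% more negative. The Gbp7 call was lost without any 1 of the 12 arrays compared other than the Kupffer MCSF replicates 2 and 3 (adjusted p 0.0510 to 0.169), and the count was 5 without the Kupffer MCSF replicate 3. No member passed with HGF, where limma gave 6 members at an unadjusted p under 0.05 and 20.9% of all genes were more positive and 2.26% more negative. The median of all genes was 0.36 with HGF, and 1 of the 37 members lay above it. Relative to that median the median member was at -0.78, and before that shift at -0.43. No member passed with CD146 cells either, again with 6 at an unadjusted p under 0.05, against 0.164% more positive and 0.713% more negative. With HGF at 1 day the count was 7 without the Kupffer MCSF replicate 1, 5 without the Kupffer HGF replicate 1 and 2 without the Kupffer HGF replicate 3.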

How the data were processed

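RNA of 48 macrophage cultures was measured on Affymetrix arrays, 1 per culture. What the authors deposited are log2 values for each probe set; RMA and the Transcriptome Analysis Console are the tools in the submitters' processing notes. Their versions, and whether RMA took all arrays at once, are not given in the sources used here. Deposited values range from 0.88 to 19.9, and the highest member value is 16.1. Of 28846 probe sets, 6640 were controls and 19572 had 1 gene symbol, and 2634 transcript probe sets without a symbol were set aside. For 55 genes with several probe sets the one with the highest mean was used, which left 19505 genes. No coordinates of probe sets were used, and symbols were checked against RefSeq names of GRCm38.p6. The number of arrays, 3 a group, limits the precision.

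The fit used limma 3.58.1 (R 4.3.3) with 1 mean per group over all 48 arrays, empirical Bayes moderation with default settings and two-sided moderated tests. For each of 27 contrasts, p-values from limma were adjusted by the Benjamini-Hochberg method across the 19505 genes, with 0.05 as threshold, and "rose", "fell" or "called" refers to members that passed. The procedure was tested on simulated data. The negative control level of an array is the median of its 5222 negative control probe sets. Motifs were searched in RefSeq promoter windows with Python 3.11.15, and figures were drawn with matplotlib 3.10.9.

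The members and all lists were chosen with earlier results of these data known. All members could be named, with values on every array for Irf7, Irf1, Ifit1, Isg15, Ddx58, Gbp2 and Psmb8 where described. The rule also named the 3 largest rises and falls per contrast, members that passed against the majority, up to 3 genes of each other pathway list by smallest adjusted p, and Ifnb1, Cxcl10 and a further gene that is not reported here. Array values of Cmpk2, Rsad2, Usp18, Gbp7, Jak2, Cxcl9 and Ifng, the values of Ifnar2, Ikbke, Socs1, Parp14, Jak1 and of the receptor genes in MCSF, and which named members are printed, were chosen with their values in view. Alternatives were quantile normalization, median centring, leaving out the dimmest 25% of genes, a trended and robust variance, array weights, a block for the replicate number, the mean over probe sets, a 2-fold minimum, fitting the compared arrays alone, and leaving out arrays. No sample column was left unused.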

Additional observations from a re-analysis of the deposited data

Results flagged for a closer look

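The response of Kupffer cells minus that of monocytic macrophages was past the threshold for 2 members with Ito cells at 1 day, 29 with HGF at 3 days, 8 with Ito cells at 3 days and 31 with CD146 cells at 3 days, and the change with time in MCSF for 34. Over all genes, in the same order, 1.85%, 7.58%, 4.58%, 9.64% and 9.63% were more positive. Those more negative were 1.9%, 7.61%, 4.16%, 8.54% and 8.84%. The count of 2 of 37 is near the share of all genes. With Ito cells at 1 day the 2 were Gbp2 (2.63 ± 0.57 SE, adjusted p = 0.00391) and Gbp7 (1.83). With HGF at 3 days the largest differences of responses were those of Gbp2 (-5.13), Irf7 (-4.25) and Bst2 (-3.85). With Ito cells at 3 days they were those of Gbp2 (-4.72), Bst2 (-3.74) and Gbp3 (-3.45). With CD146 cells at 3 days they were those of Gbp2 (-6.77), Gbp3 (-4.93) and Irf7 (-3.84), and Cmpk2 differed in the other direction (1.32, adjusted p = 0.0367). The Cmpk2 call was lost without any 1 of 6 of the 12 arrays compared (adjusted p 0.0756 to 0.211). In the controls the change with time differed most for Irf7 (7.30), Gbp2 (6.07) and Ifit1 (5.57).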

How the results depend on the processing

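Each count of members called was recomputed under the alternatives, and the directions of all 437 calls of named members were kept under each. Quantile normalization ended 21 of these calls, median centring 18, the dimmest genes left out 0, a trended and robust variance 2, array weights 7, the replicate block 3, the mean over probe sets 0, the 2-fold minimum 9 and the fit to the arrays compared alone 60. Leaving out 1 array ended 416 of 3246, and leaving out 3 arrays together (Kupffer MCSF 1 day replicate 1, Kupffer HGF 1 day replicate 2, monocytic MCSF 3 day replicate 3) ended 24 of 259. The cause was not tested. Equal replicate numbers did not pair the arrays: the mean correlation of deviations from group means was -0.0103 between arrays of equal number and 0.0055 otherwise, all 3 correlations were above 0.1 in 1 of 120 pairs of groups, and with the replicate block Ifit1 in monocytic macrophages with CD146 cells at 3 days had an adjusted p of 0.0533.

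Counts of members called that moved by over 1.5 times were as follows, for contrasts with MCSF unless stated. Shares of all genes called under the alternatives or with arrays left out are not given here. A moved count therefore does not show that members moved apart from all genes. With quantile normalization they were 1 (Kupffer HGF 1 day), 0 (monocytic HGF 1 day), 5 (monocytic Ito 1 day), 17 (monocytic CD146 3 days) and 9 (Kupffer against monocytic 1 day). With median centring they were 3 (Kupffer HGF 1 day), 18 (Kupffer Ito 1 day), 0 (monocytic HGF 1 day), 7 (monocytic CD146 3 days), 8 (Kupffer against monocytic 1 day), 4 (difference of responses, HGF 1 day) and 4 (difference, Ito 1 day). With array weights they were 21, 22 and 28 in Kupffer cells at 1 day (HGF, Ito, CD146), 4, 10 and 23 in monocytic macrophages at 1 day, 20 (monocytic HGF 3 days), 27 (monocytic CD146 3 days), 16 (Kupffer against monocytic 1 day), 24 (monocytic Ito against CD146 1 day), 17 (Kupffer Ito against CD146 3 days), and for differences of responses 9, 8 and 1 at 1 day (HGF, Ito, CD146) and 21 (Ito 3 days). With the 2-fold minimum the count was 3 (monocytic HGF 3 days).

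With only the compared arrays in the fit, which leaves fewer arrays to estimate the spread, counts were 0, 1 and 1 in Kupffer cells at 1 day (HGF, Ito, CD146), 13 (monocytic Ito 1 day), 22 (monocytic CD146 1 day), 3 (monocytic HGF 3 days), 4 (monocytic CD146 3 days), 3 (Kupffer against monocytic 1 day), 25 (monocytic Ito against CD146 1 day), 14 (Kupffer Ito against CD146 3 days) and 1 (difference, Ito 1 day). Without the 3 arrays named above they were 5 (Kupffer Ito 1 day), 17 (Kupffer CD146 1 day), 18 (monocytic HGF 3 days), 25 (monocytic CD146 3 days), 8 (Kupffer against monocytic 1 day), 3 (difference, HGF 1 day), 1 (difference, Ito 1 day) and 21 (difference, Ito 3 days).

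When 1 array was left out, the counts for Kupffer cells ran from 1 to 21 (HGF), 2 to 15 (Ito) and 3 to 11 (CD146) at 1 day, and from 25 to 33, 29 to 32 and 22 to 25 at 3 days. For monocytic macrophages they ran from 1 to 1, 1 to 3 and 5 to 8 at 1 day, and 0 to 14, 11 to 20 and 2 to 15 at 3 days. Kupffer against monocytic controls gave 4 to 8 at 1 day and 35 to 36 at 3 days, and time in MCSF gave 32 to 34 in Kupffer and 17 to 22 in monocytic cells. Ito against CD146 cells gave 15 to 17 and 12 to 14 at 1 day and 1 to 3 and 30 to 31 at 3 days, in Kupffer and monocytic cells. Differences of responses gave 0 to 7 (HGF), 1 to 5 (Ito) and 0 to 0 (CD146) at 1 day, 23 to 31, 6 to 14 and 28 to 31 at 3 days, and 30 to 34 for time. Where a member is under the negative controls on every array of a group, as Isg15 is in monocytic macrophages at 3 days, its difference has a bound only.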

Other observations

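In monocytic macrophages 22 of 51 other interferon-stimulated genes were lower at 3 days than at 1 day in MCSF and 4 were higher, with Ifitm1 (-7.36 relative to the median of all genes) and Slfn1 (under the negative controls at 3 days and at least 67.5-fold lower) among the lower. The inhibitor Socs3, also under the negative controls at 3 days, was at least 52.8-fold lower. Of 9 receptor and JAK-STAT genes 3 fell, Ifnar1 (-1.74), Ifnar2 (-1.57) and Jak2 (-2.23), and 3 rose, Il10rb (1.29), Tyk2 (1.14) and Ifngr1 (0.89). Among 15 sensors and adaptors 8 rose and 2 fell. Over all genes 19.5% were higher and 9.82% lower in this comparison. In Kupffer cells 32 of the 51 rose with time in MCSF and 3 fell, with Herc6, a ligase that attaches Isg15 in mice, up by 3.71. Relative to the median of all genes, the interferon receptor kinases Jak2 and Tyk2 rose there by 2.99 and 2.69. Jak1 did not pass (-0.18 on that scale, adjusted p = 0.960 for the unshifted difference). Of the 9 receptor and JAK-STAT genes 5 rose and 0 fell. Over all genes 21.5% were higher and 10.2% lower in the Kupffer comparison.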
